A study of Ovis aries with 14 samples.

Results

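The comparison described here is that of fetal sheep hypothalamus after triclosan or vehicle had been infused into the ewe, with 3 triclosan arrays set against 2 independent vehicle arrays of the 14 arrays in the series. Triclosan is an antibacterial compound of soaps and toothpastes. The ewes received it intravenously at 100 μg/kg per day or received vehicle for 2 days, and the hypothalami came from fetuses at about 130 days of age. The remaining 8 arrays belong to fetuses infused directly with triclosan at 250 μg per day (n = 4) or with vehicle (n = 4), and they enter here as a second route of exposure. One more array labelled as maternal vehicle was left out, because each of its spot signals equalled 0.6 times that of vehicle replicate 1 plus 0.4 times that of vehicle replicate 2. Whether replicates stand for different ewes is not stated in the labels, so the p-values measure the spread between these samples only.

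The hypothalamus controls the pituitary and appetite through small sets of neurons that each make a particular peptide. In the arcuate nucleus, neurons making AGRP and NPY promote feeding, and neurons making POMC, the precursor of the melanocortins, restrain it. GHRH and somatostatin (SST) drive and inhibit growth hormone release, and GNRH1, under the influence of neurokinin B (TAC3), drives the gonadotropins. In the fetus these circuits are still maturing, and the placenta stands between the ewe's circulation and theirs.

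RNA was measured with one-colour Agilent arrays carrying 60-base probes. Values are log2 of the processed signal minus the 75th percentile of the same array, so that 0 marks a bright probe and negative values are usual. Of 15008 probes, 13152 were well above background on at least 3 of the 5 maternal arrays and were tested, among them 861 genes with a symbol, each standing for its brightest probe. Between 83.6% and 90.1% of spots on these 5 arrays were well above background and 0 were saturated. Of 24 hypothalamic peptide genes listed as markers of the tissue, 11 were on the array and all 11 were measured. Of 7 regional transcription factors of the hypothalamus, only ARNT2 was on the array under its symbol. The listed general neuron genes and oligodendrocyte genes were not, so neurons as a whole and oligodendrocytes have no marker here. The peptide genes mark only particular sets of neurons. Triclosan and vehicle replicates 1 shared a slide, as did replicates 2, and triclosan replicate 3 lay on a slide without a maternal vehicle partner.

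No probe passed the adjusted threshold of 0.05 in limma's test of maternal triclosan against maternal vehicle (0.00% called in either direction), and the smallest adjusted p was 0.200. At an unadjusted p of 0.05 there were 1287 probes (9.79%), 615 higher (4.68%) and 672 lower (5.11%), where 658 would be expected with no difference. Among named genes 0 passed and 81 lay below the unadjusted threshold, 45 higher (5.23%) and 36 lower (4.18%). The 3 triclosan arrays all lay above both vehicle arrays for 155 of the 861 named genes (18.0%) and all below for 157 (18.2%), and these shares are the background for every later count of non-overlapping genes. Over all probes the shares were 18.8% above and 20.1% below. A mean difference over 2-fold without overlap was seen at 240 probes higher (1.82%) and 74 lower (0.563%), and at 23 named genes higher (2.67%) and 7 lower (0.813%). That excess of higher values depended on the scaling, with 180 higher and 146 lower after quantile normalisation and 42 and 33 after normexp background correction. The count of 314 was 454 and 749 without vehicle replicates 1 and 2, and 401, 486 and 457 without triclosan replicates 1 to 3. Fewer arrays make a lack of overlap easier to meet, so such a rise does not point to any array.

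The first principal component of the 5 arrays, with 39.8% of the variance, placed vehicle replicates 1 and 2 at −38.6 and −21.0 and triclosan replicates 1 to 3 at 27.8, 21.7 and 10.07. The groups did not overlap on that axis, and triclosan replicate 3 lay nearest to the vehicle arrays. The second component, with 24.0%, set triclosan replicate 3 (34.3) against triclosan replicate 2 (−26.3). When limma weighted the arrays by their fit, 970 probes (7.38%) were called, 412 higher and 558 lower, with a weight of 4.22 for triclosan replicate 1, 0.949 for replicate 2 and 0.711 for replicate 3. With the blended array counted as a sample, 10 probes (0.0760%) were called, EAAT2 and HSP90AA1 among them. With 3 arrays against 2, a single value cannot reach a two-sided exact permutation p below 0.2.

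Most of the measured hypothalamic peptide genes stood higher in the triclosan group. Of the 11 measured, 7 had all 3 triclosan arrays above both vehicle arrays, beside 18.0% of named genes. For 0 all lay below, beside 18.2%, and the other 4 overlapped. The median log2 difference was 0.97 against 0.02 over all named genes tested. None of the 11 passed the adjusted test, and 4 lay below an unadjusted p of 0.05, all higher, beside 5.23% of named genes. The list median was 0.90 within slide 1 and 1.26 within slide 2, and from 0.81 to 1.13 when any 1 array was left out. It was 0.59 after normexp correction, which moved the median of all named genes to −0.17. In bulk tissue, more cells of a type and more RNA per cell cannot be told apart, nor can a difference in which part of the hypothalamus was sampled.

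AGRP, the feeding peptide that blocks melanocortin receptors, read −5.73 and −3.85 on the vehicle arrays and −2.16, −1.35 and −0.60 on the triclosan arrays. All triclosan arrays were above both vehicle arrays, which differed from each other by more than any pair of triclosan arrays. The difference was 3.42 (SE 1.33, limma adjusted p = 0.460), and it was 1.99 after normexp correction and 2.48 without vehicle replicate 1. Its companion NPY, the other feeding peptide of the same neurons, read −0.01 and 0.08 with vehicle and 1.61, 1.60 and 1.99 with triclosan. Here the vehicle arrays lay close together and the groups stood well apart, with a difference of 1.70 (SE 0.68, adjusted p = 0.470) that was 1.67 after normexp correction. POMC, whose products act against AGRP, read −1.03 and 0.01 with vehicle and 0.45, 1.12 and 1.88 with triclosan. The groups did not overlap, vehicle replicate 2 lay near the lowest triclosan array, and the difference was 1.66 (SE 0.58, adjusted p = 0.435).

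GHRH, the releasing hormone for growth hormone, read −6.17 and −3.84 with vehicle and −2.41, −1.92 and −1.58 with triclosan. The triclosan arrays lay close together and above both vehicle arrays, and the difference was 3.04 (SE 1.16, adjusted p = 0.458), or 1.57 after normexp correction and 1.87 without vehicle replicate 1. SST, which opposes GHRH at the pituitary, read 3.45 and 2.76 with vehicle and 4.34, 4.63 and 3.75 with triclosan. Its groups did not overlap, triclosan replicate 3 was nearest to vehicle, and the difference was 1.14 (SE 0.66, adjusted p = 0.580). TAC3 read −3.22 and −3.54 with vehicle against −2.37, −2.18 and −2.67, a difference of 0.97 (SE 0.49, adjusted p = 0.543) without overlap. GNRH1 was dim on every array, at −5.63 and −5.22 with vehicle against −4.36, −4.78 and −4.95, and its difference of 0.73 (SE 0.87) turned to −0.10 after normexp correction.

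**Figure D1:**
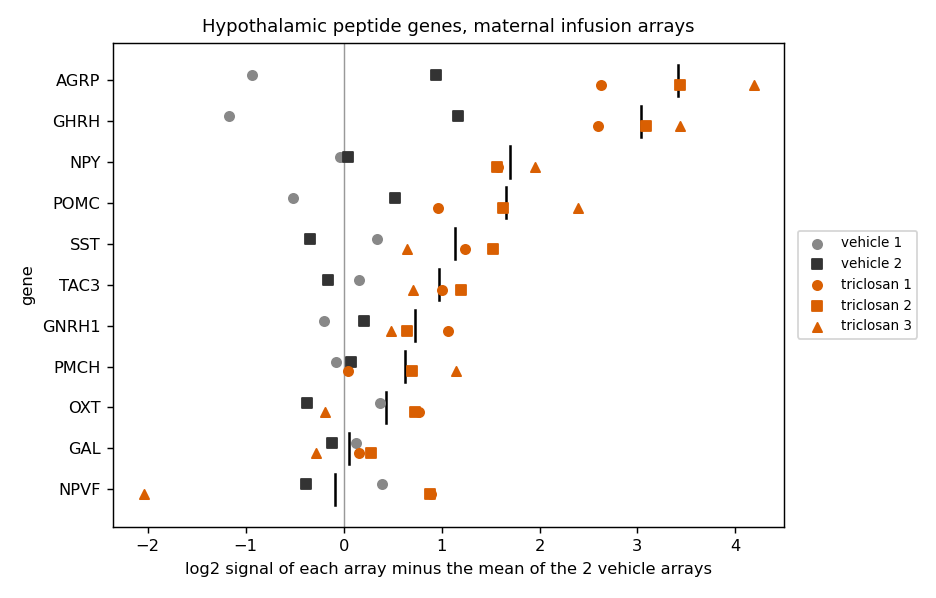
Log2 signal of each maternal-infusion array minus the mean of the 2 vehicle arrays (x axis) for the 11 measured hypothalamic peptide genes (y axis), with grey and black points for vehicle, orange points for triclosan and a black bar at the fitted difference. All 3 triclosan points lie to the right of both vehicle points for the 7 genes from AGRP (3.42) to GNRH1 (0.73), and the 4 genes below them overlap.

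The other 4 peptide genes overlapped between the groups. PMCH, melanin-concentrating hormone, had a difference of 0.63 that turned to −0.08 after normexp correction, OXT (oxytocin) one of 0.44, and GAL (galanin) one of 0.05. OXT was 0.81 without vehicle replicate 1 and 0.062 without replicate 2, and PMCH was 0.37 without triclosan replicate 3. NPVF, the precursor of a gonadotropin-inhibiting peptide, read 0.04 and −0.73 with vehicle and 0.55, 0.53 and −2.39 with triclosan. Triclosan replicates 1 and 2 were above both vehicle arrays and replicate 3 far below, and the difference without replicate 3 was 0.89 instead of −0.09.

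Each peptide gene but TAC3 was read by a pair of nearly identical probes, so a like value within a pair is not an independent reading. Of 400 named genes with 2 tested probes, 248 had a pair sharing an unbroken run of at least 30 bases. Probes of AGRP, GHRH and POMC are shown as examples of such pairs, with the bases shared with the gene's other probe in capitals.
AGRP: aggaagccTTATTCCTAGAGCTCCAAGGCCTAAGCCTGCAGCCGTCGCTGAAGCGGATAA
GHRH: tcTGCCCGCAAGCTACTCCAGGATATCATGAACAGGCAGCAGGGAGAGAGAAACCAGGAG
POMC: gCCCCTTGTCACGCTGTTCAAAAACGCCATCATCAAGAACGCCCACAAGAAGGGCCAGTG
The other probe of each gave a difference of 3.69 for AGRP, 3.13 for GHRH and 1.71 for POMC, sharing 52, 58 and 59 of 60 bases. The sequences are those of the array design as the scanner files list them, 5′ to 3′.

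Among receptors of the feeding circuit, NPY1R, a receptor for NPY, had a value of −0.48 with all triclosan arrays below vehicle, although its 2 probes differed in sign, and it was −0.20 without vehicle replicate 1. LEPR, the leptin receptor, read −6.19 and −6.20 with vehicle and −5.51, −5.17 and −5.66 with triclosan, near the dim end, and its difference of 0.75 turned to −0.25 after normexp correction. GLP1R, the receptor for the satiety hormone GLP-1, had 0.53 without overlap. The lists of feeding signals hold peptides and receptors together, so they are no separate reading of receptors. In all, 9 genes of the orexigenic list were measured, 3 above and 2 below without overlap (median 0.05). Of the anorexigenic list 4 were measured, 3 above and 0 below (median 0.64). After normexp correction these medians were −0.077 and 0.046. AGRP and NPY are among those above in the orexigenic list, and POMC in the anorexigenic list.

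ASIP, the agouti signalling protein, a relative of AGRP better known from the skin, was the only named gene with an empty gap of over 4 log2 units between its 5 maternal arrays. It read 4.53 and 5.01 on the vehicle arrays, 5.05 on triclosan replicate 3, and −3.24 and −3.27 on triclosan replicates 1 and 2. The 8 fetal-infusion arrays read 3.70 to 5.38, so the signal was low on 2 arrays of 13, both of them triclosan. A second probe with a different sequence, printed because it shares a run of only 8 bases with the first, read 2.40 and 2.79 with vehicle, −6.75 and −6.57 on triclosan replicates 1 and 2, and 2.83 on replicate 3.
ASIP: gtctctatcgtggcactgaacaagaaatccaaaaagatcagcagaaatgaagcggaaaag
Both probes thus separated the same 2 arrays from all others. The mean difference of −5.26 (SE 1.85, adjusted p = 0.438) describes neither kind of array. Without triclosan replicate 3 both ASIP probes were called (−8.03, limma adjusted p = 6.25e-06 for the brighter). That fit leaves out the triclosan array that read like vehicle, so the choice fixed its outcome and its p-value is no test of triclosan. Reading the sequence of each animal at this gene was not possible from these data, and the source of the split was not tested.

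Among the 13152 probes, 7 had an empty gap of over 4 log2 units among the 5 maternal arrays. Besides the 2 ASIP probes they carry no gene name. A_70_P066011 was bright on triclosan replicates 1 and 2 (−0.04 and −0.02) and dim on the vehicle arrays and triclosan replicate 3 (−9.16 to −6.00). Among the fetal-infusion arrays it was bright on 3 of 4 triclosan arrays and on none of the 4 vehicle arrays. A_70_P008216 was dim on triclosan replicate 3 (−4.66) against 1.38 to 1.56 on the other maternal arrays, and dim on 1 fetal triclosan array. A_70_P037461 was dim on triclosan replicates 1 and 3 (−7.33 and −5.95). A_70_P043801 and A_70_P012001 were set apart by vehicle replicate 2 alone, at −9.31 and −9.23, so such gaps were not limited to triclosan arrays.

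**Figure D2:**
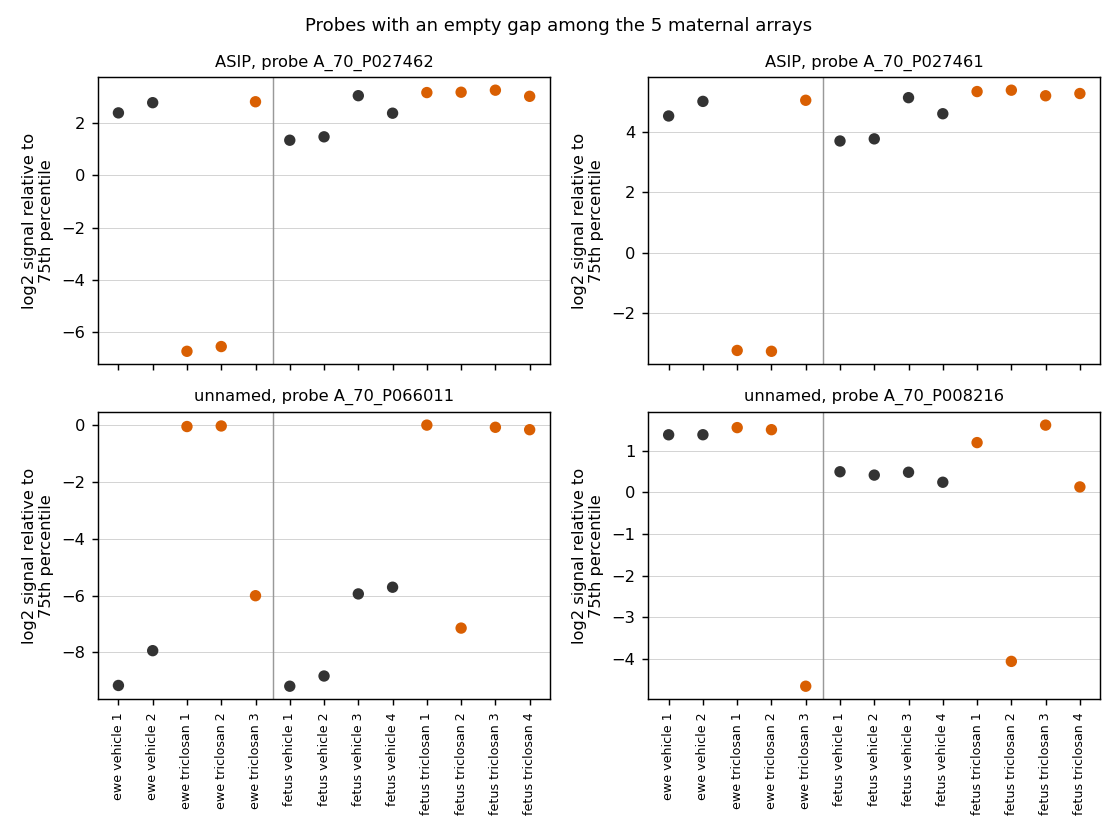
Log2 signal relative to the 75th percentile of the array (y axes) on the 5 maternal-infusion arrays (left of the line) and the 8 fetal-infusion arrays (right), black for vehicle and orange for triclosan, for both ASIP probes and 2 unnamed probes. Both ASIP probes are low on the first 2 maternal triclosan arrays only, and A_70_P066011 is bright on those same 2 arrays and on 3 fetal triclosan arrays.

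The growth hormone and IGF axis had 16 measured genes, 6 above and 1 below without overlap. The median was 0.35, or 0.125 after normexp correction. GHRH and SST, counted already among the peptides, are among those above. IGF2, a fetal growth factor, read −0.24 and 1.35 with vehicle and 1.78, 1.51 and 3.06 with triclosan, a difference of 1.56 (SE 0.66, adjusted p = 0.486) in which vehicle replicate 2 lay close to 2 triclosan arrays. IGFBP6, a binding protein that prefers IGF2, read 0.42 and 0.66 with vehicle and 1.41, 1.14 and 1.34 with triclosan. Its groups stood apart by more than the spread within either, at 0.76 (SE 0.22, adjusted p = 0.406). IGF1, the main mediator of growth hormone after birth, had 0.62 without overlap, but 0.0015 after normexp correction. The single gene below was GHRHR, the pituitary receptor for GHRH, named here after its values were seen, which read −3.96 and −5.18 with vehicle and −6.69, −5.69 and −6.39 with triclosan (−1.69, SE 0.74). It was well above background on only 2 of the 3 triclosan arrays, and the difference was −0.87 after normexp correction, −0.93 with the authors' values and −1.08 without vehicle replicate 1. IGF2 was 0.77 without vehicle replicate 1 and 2.36 without replicate 2.

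Pituitary hormone genes were measured as markers of tissue next to the hypothalamus, and 6 of 12 listed were above the filter. CGA, the subunit common to the glycoprotein hormones, read −5.34 and −5.05 with vehicle and −3.72, −0.02 and −0.36 with triclosan. Triclosan replicates 2 and 3 were far above the rest and replicate 1 in between, and the difference was 3.82 (SE 1.64, adjusted p = 0.494), with 4.63 at its other probe. PRL (prolactin) read −3.21 and −1.18 with vehicle and −3.62, −3.85 and −3.83 with triclosan, so its difference of −1.57 (SE 0.47) came mainly from vehicle replicate 2, without which it was −0.56. LHB, the beta subunit of luteinising hormone, had 0.14 with overlap. This probe read 3.71 to 4.11, whereas a second LHB probe of different sequence read −3.36 to −2.87 (0.19, with overlap). The 2 probes thus differ widely on the level of LHB. FSHB, the beta subunit of follicle-stimulating hormone, was dim and varied by over 3 log2 units within each group, with 1.496 that turned to −0.36 after normexp correction. The list holds POMC too, which both tissues make, and its median was 0.82, or −0.07 after normexp correction. The summed linear signal of the 6 genes, relative to each array's 75th percentile, was 14.6 and 15.3 with vehicle and 17.8 to 18.9 with triclosan. Most of it came from the brighter LHB probe, and it includes POMC itself, so it is no separate reading of pituitary tissue beside POMC. The part of pituitary tissue in the POMC value was not tested.

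In the reproductive list 16 genes were measured, 4 above and 0 below without overlap (median 0.21): GNRH1, TAC3, OXTR and TAC1. OXTR, the oxytocin receptor, had 0.76 (SE 0.27), which turned to −0.07 after normexp correction, and TAC1, the precursor of substance P, had 0.33. The receptors through which triclosan has been studied as an endocrine disruptor did not separate. ESR1, oestrogen receptor alpha, read −0.33 and −1.11 with vehicle and −0.63, −0.27 and −0.42 with triclosan, a difference of 0.28 (SE 0.55). ESR2, oestrogen receptor beta, had −0.11 (SE 0.50), and all 4 measured genes of the list of steroid receptors, coregulators and steroid enzymes overlapped between the groups (median 0.17).

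The stress axis had 10 measured genes, 4 above and 1 below without overlap (median 0.43, or −0.14 after normexp correction). POMC, counted already among the peptides, is among those above. NR3C1, the glucocorticoid receptor, had 0.45 (SE 0.21) without overlap, and HSD11B1, which regenerates active cortisol in tissue, 0.42 (SE 0.28). CRHR1, which receives the corticotropin-releasing signal, had 0.73 with overlap, or 0.39 without vehicle replicate 1. NR3C1 and CRHR1 turned to −0.03 and −0.06 after normexp correction.

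Thyroid genes were few, with 4 measured, 0 above and 2 below without overlap (median −0.87). TRHR, the receptor for thyrotropin-releasing hormone, read −2.70 and −2.62 with vehicle and −5.24, −4.47 and −3.13 with triclosan. The vehicle arrays lay close together, the triclosan arrays spread over more than 2 log2 units, and the difference was −1.62 (SE 0.67, adjusted p = 0.486), with −1.12 at a second probe of different sequence. TTR, the thyroid hormone carrier made in the choroid plexus, read 0.48 and −0.11 with vehicle and −0.61, −1.78 and −1.60 with triclosan. Its difference of −1.52 (SE 1.27) was lower on all triclosan arrays. THRB, a thyroid hormone receptor, had −0.23, and TSHR, the thyrotropin receptor, 0.98, both with overlap. TSHR was 0.15 without triclosan replicate 3.

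Chaperones and enzymes of protein folding gave the clearest group of lower values. Of 8 measured genes of the heat shock and unfolded protein list, 6 had all triclosan arrays below vehicle and 1 all above, with a median of −0.51 against 0.02 over all named genes. Of these genes, 5 lay below an unadjusted p of 0.05 in the lower direction, beside 4.18% of named genes. The list median was −0.57 within slide 1 and −0.70 within slide 2, and stayed between −0.60 and −0.45 under every alternative run. HSP90AA1, the cytosolic chaperone of steroid receptors and kinases, read 3.86 and 3.74 with vehicle and 2.78, 2.66 and 3.20 with triclosan. The groups did not overlap, and the triclosan arrays were spread more widely than the vehicle arrays. The difference was −0.92 (SE 0.17, adjusted p = 0.253).

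PDIA4, which forms disulfide bonds in the endoplasmic reticulum, read −0.61 on both vehicle arrays and −1.64, −1.70 and −1.28 with triclosan, a difference of −0.93 (SE 0.28, adjusted p = 0.418). ATF6, a sensor of unfolded protein, had −0.54 (SE 0.20), or −0.30 without vehicle replicate 1. The one gene above was ATF4, the transcription factor translated under amino acid shortage, at −0.12 and −0.07 with vehicle and 0.39, 0.37 and 0.34 with triclosan. Its groups were tight and separate, and the difference of 0.46 (SE 0.14) did not pass (adjusted p = 0.418). In the direct infusion, HSP90AA1 and PDIA4 had −0.80 and −0.96 and both were called, so their values were lower by both routes.

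**Figure D3:**
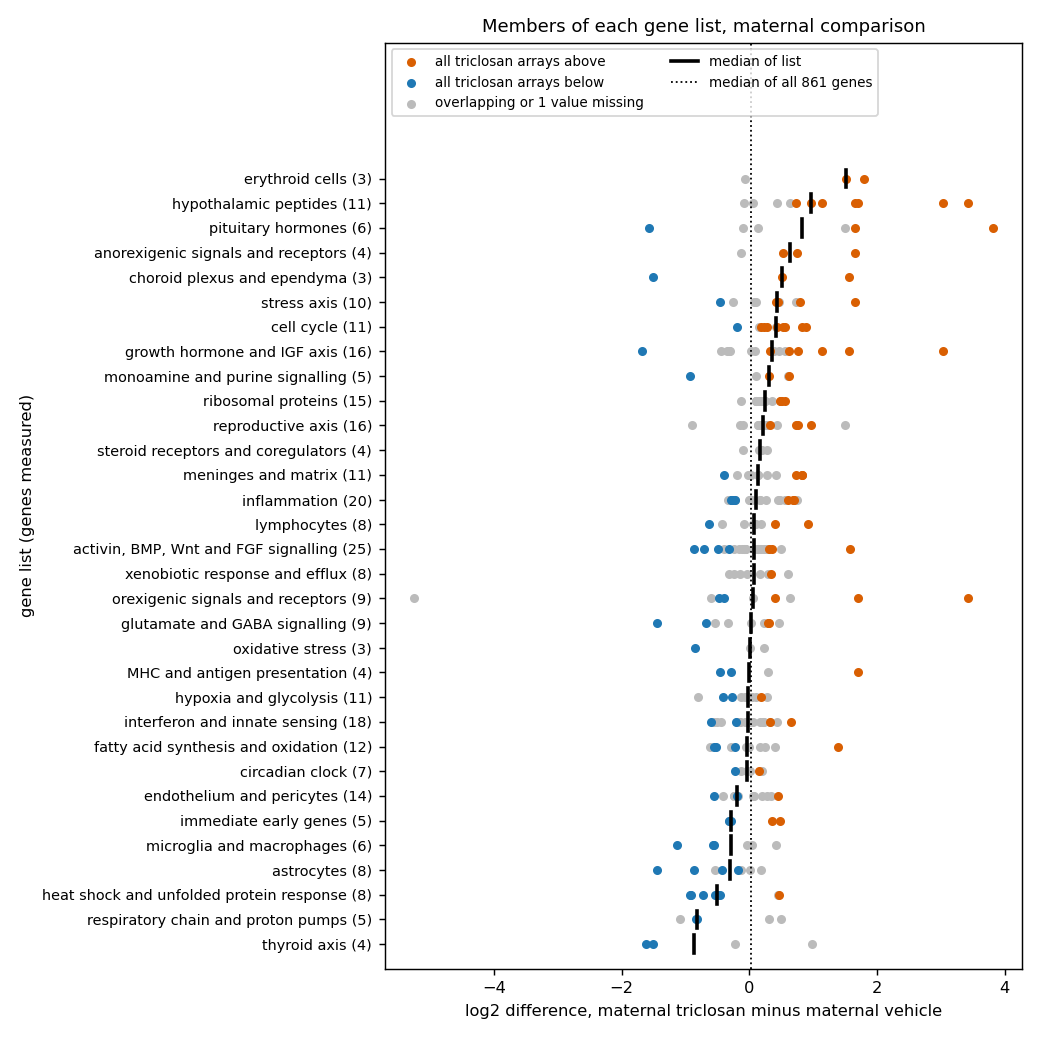
Log2 differences between maternal triclosan and maternal vehicle (x axis) for the measured members of each gene list (y axis, number measured in brackets), coloured by whether the arrays of the groups overlapped, with a bar at the list median and a dotted line at the median of all 861 named genes (0.02). Hypothalamic peptides (0.97) lie to the right and the heat shock list (−0.51) to the left, while ASIP is the single point near −5.

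Ribosomal protein genes and cell cycle genes had mostly higher values. Of 15 measured ribosomal genes 10 had a value on all 5 arrays, and 4 of these lay above vehicle and 0 below without overlap (median 0.24). Of these, RPL10, RPL13A and RPS26 had 0.55, 0.50 and 0.50, each with an unadjusted p below 0.05, and in each of them triclosan replicate 3 was nearest to the vehicle arrays. Of 11 cell cycle genes, 8 lay above and 1 below (median 0.42). AURKA, a mitotic kinase, read −4.37 and −3.94 with vehicle and −3.32, −3.39 and −3.12 with triclosan, a difference of 0.88 (SE 0.35, adjusted p = 0.470). CDK1, which drives entry into mitosis, had 0.82, TYMS, which makes thymidylate, 0.56, and PCNA, the replication clamp, 0.44, all without overlap. The cell cycle median was 0.21 after normexp correction, and the list's median in the direct infusion was −0.09.

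Of 8 measured astrocyte genes 4 had all triclosan arrays below vehicle and 0 above (median −0.31). EAAT2, through which astrocytes clear most synaptic glutamate, had the smallest p of all 13152 probes (4.42e-05 unadjusted). It read −1.59 and −1.35 with vehicle and −3.10, −3.07 and −2.57 with triclosan, so every triclosan array was lower than both vehicle arrays and the groups stood well apart. The difference was −1.45 (SE 0.23, adjusted p = 0.200), a 2.72-fold lower mean, with −1.51 within slide 1 and −1.72 within slide 2. It was −1.27 after normexp correction and −1.34 with the authors' values. Its probe is shown because it carries this value, with the bases shared with the other EAAT2 probe (−1.28) in capitals.
EAAT2: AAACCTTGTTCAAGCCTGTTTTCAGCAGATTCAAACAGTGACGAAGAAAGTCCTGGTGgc
Another probe, named GLT-1 in the array design after an older name of this transporter and counted in no list, had −0.72 (SE 0.18, named after its value was seen).

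EAAT1, the second astrocyte glutamate transporter, read 0.03 and 0.47 with vehicle and −0.35, −0.61 and 0.08 with triclosan, a difference of −0.54 (SE 0.22) in which triclosan replicate 3 overlapped vehicle. FGFR3, a growth factor receptor of glial precursors, had −0.87 (SE 0.52) without overlap, and AQP4, the water channel of astrocyte end-feet, had 0.18 with overlap, or −0.09 with the authors' values. EAAT1 was −0.32 without vehicle replicate 2. The summed signal of these 8 genes was 85.6 and 89.2 with vehicle and 87.4 to 98.5 with triclosan, and most of it came from the AQP4 probe, so it does not read the list as a whole. Of 9 glutamate and GABA genes 2 lay above and 2 below (median 0.02), with −0.69 for the receptor MGLUR3 and 0.29 for the receptor MGLUR4.

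Markers of other cells lay in several directions. AHSP, the chaperone of alpha haemoglobin in red cell precursors, read −5.28 and −4.58 with vehicle and −2.91, −3.58 and −3.76 with triclosan, a difference of 1.51 (SE 0.37, adjusted p = 0.344) that was 0.46 after normexp correction. HBB, beta haemoglobin, read 1.68 and 3.15 with vehicle and 4.52, 4.75 and 3.36 with triclosan, with vehicle replicate 2 and triclosan replicate 3 nearly level. Its difference was 1.80 (SE 0.57), it was 1.06 without vehicle replicate 1, and a second HBB probe of unrelated sequence had −0.43. Of the 3 measured erythroid genes 2 lay above and 0 below, and the other 1 overlapped (median 1.51, or 0.46 after normexp correction). The summed signal of the 3, mostly from the HBB probe, was 3.34 and 8.99 with vehicle and 23.2, 27.0 and 10.5 with triclosan. Its part in other values, such as those of the peptide genes, was not tested.

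Of 6 microglia and macrophage genes, 3 lay below and 0 above (median −0.30): ITGAM, an integrin of phagocytes, at −1.13 (−0.67 without triclosan replicate 2), and the Fc receptors FCGR1A and FCGR2B at −0.57 and −0.56. FCGR2B was well above background on only 1 of the 3 triclosan arrays. The summed signal of the list was 1.08 and 1.11 with vehicle and 0.956 to 1.12 with triclosan. Of 8 lymphocyte genes 2 lay above and 1 below. LCK, a T cell kinase, had 0.91 (SE 0.24, adjusted p = 0.350) and CD247, a chain of the T cell receptor complex, −0.63. These T cell genes lay on opposite sides.

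Of 14 endothelial and pericyte genes 1 lay above and 2 below (median −0.19). TIE1, a receptor of angiopoietin signalling, had 0.45, and ZO2, a tight junction scaffold, −0.55. Of 11 genes of the meninges and matrix 3 lay above and 1 below (median 0.14). DCN, a small proteoglycan, read 1.27 and 1.54 with vehicle and 1.98, 1.97 and 2.71 with triclosan (0.82, SE 0.26), and TIMP1, an inhibitor of matrix proteases, read 1.65 and 1.79 against 2.48, 2.51 and 2.35 (0.73, SE 0.22). Both stood above vehicle on every triclosan array, whereas TIMP3, a related inhibitor, had −0.40. COL6A1, a collagen chain, had 0.82 that turned to −0.22 after normexp correction. The 3 measured choroid plexus and ependyma genes split, with TTR below and IGF2 and VIM (0.51), an intermediate filament, above.

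Genes of metabolism showed single genes rather than groups. ACACA, the enzyme that commits acetyl-CoA to fatty acid synthesis, read −4.40 and −4.72 with vehicle and −3.21, −3.10 and −3.22 with triclosan. The triclosan arrays lay within 0.2 log2 units of each other and above vehicle, at 1.39 (SE 0.38, adjusted p = 0.371), or 0.61 after normexp correction. ACLY, the step before it, had −0.61, CPT1A, which admits fatty acids to mitochondria, −0.53, and LPL, which frees them from lipoproteins, −0.56. Of the 12 measured genes of that list 1 lay above and 3 below (median −0.03). SOD2, the mitochondrial superoxide dismutase, read 0.04 and 0.41 with vehicle and −0.68, −0.71 and −0.48 with triclosan, a difference of −0.85 (SE 0.27, adjusted p = 0.418). COX5A, a subunit of cytochrome oxidase, had −0.83 (−0.54 without triclosan replicate 1), and ATP6V1B2, a subunit of the vesicular proton pump, −0.82, both without overlap, while TXN, a thiol reductant, had 0.24. Of 5 respiratory chain and proton pump genes 0 lay above and 2 below (median −0.82), and of 3 oxidative stress genes 1 lay below (median 0.01). The respiratory median ran from −1.004 to 0.10 when any 1 array was left out.

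Of 8 measured genes that respond to foreign compounds 1 lay above and 0 below without overlap (median 0.07). GSTA1, a conjugating enzyme, had 0.34, and ABCB1, which pumps drugs out of brain endothelium, −0.32 with overlap. CYP3A24, a drug-metabolising cytochrome, had 0.60 (SE 0.50) with overlap, which turned to −0.22 after normexp correction and to −0.079 without vehicle replicate 2. The lists of interferon and innate sensing genes (18 measured, 2 above, 2 below, median −0.03), inflammation (20, 3 above, 4 below, median 0.10), hypoxia and glycolysis (11, 1 above, 2 below, median −0.02) and the circadian clock (7, 1 above, 1 below, median −0.04) stayed near the median of all genes. TLR2, an innate receptor, had −0.60, and CXCL8, a neutrophil chemokine, 0.68. Among 5 immediate early genes, 2 above and 2 below (median −0.29), EGR1 had −0.31 and MYC 0.48. Of 5 monoamine and purine genes 2 lay above and 1 below (median 0.31), and of 4 antigen presentation genes 1 above and 2 below. In growth factor signalling, with 25 genes measured, 3 above and 4 below (median 0.07), BMP4 had 1.57 (SE 0.58) without overlap, ACVR1, a receptor of that family, −0.71 (SE 0.22) and FGFR1 −0.32.

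The named genes of smallest unadjusted p have been given above apart from a few. TSPO, a mitochondrial cholesterol-binding protein, read −1.54 and −1.44 with vehicle and −0.12, 0.10 and −1.20 with triclosan, so its difference of 1.08 (SE 0.35) rested on triclosan replicates 1 and 2. CALML4, a calmodulin relative, had 0.82, SERPINC1, antithrombin, 0.73, and CIB1, a calcium-binding protein, 0.44. ADORA3, an adenosine receptor, read −0.81 and −1.16 with vehicle and −1.89, −2.10 and −1.77 with triclosan, a difference of −0.94 (SE 0.20, adjusted p = 0.294) between separate groups. GGCX, the vitamin K-dependent carboxylase, had −0.67, and JAG1, a Notch ligand, −0.72. All 12 higher and 12 lower genes of smallest p were without overlap, which such a choice favours.

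**Figure D4:**
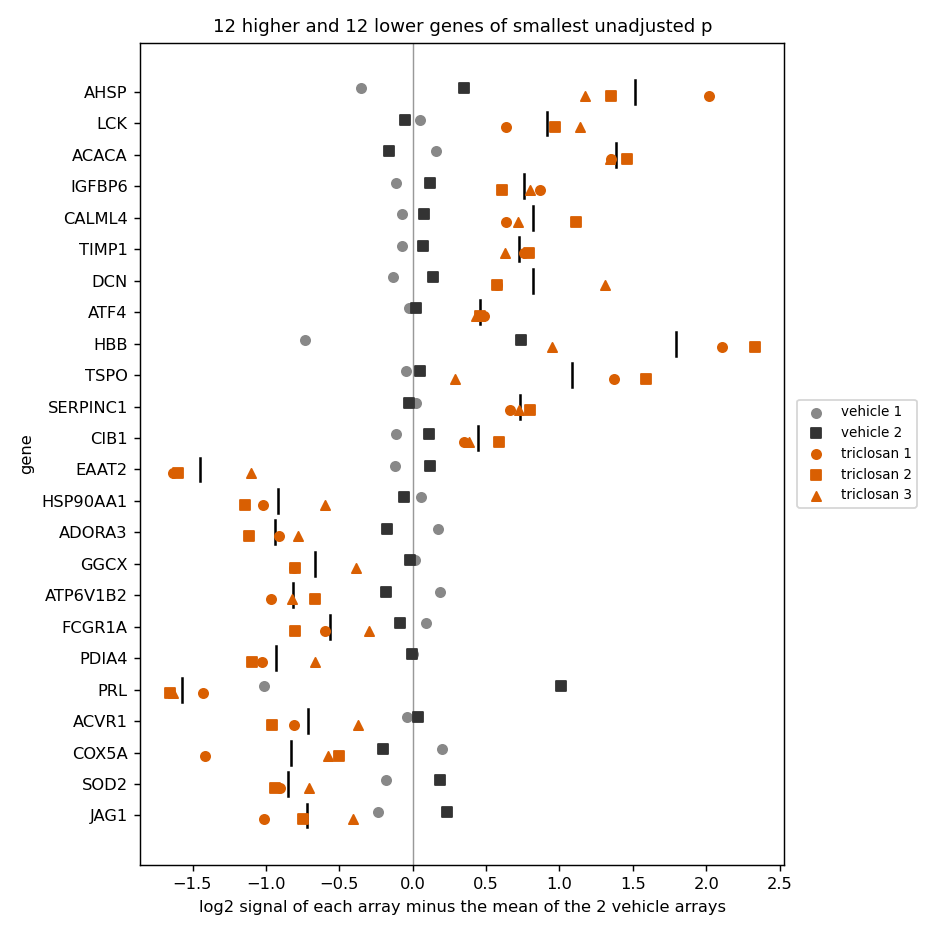
Log2 signal of each maternal-infusion array minus the mean of the 2 vehicle arrays (x axis) for the 12 higher and 12 lower named genes of smallest unadjusted p (y axis), with symbols for the 5 arrays and a black bar at the fitted difference. The groups are separate for every gene shown, narrowly so for some, HBB and JAG1 among them, and EAAT2 (−1.45) and HSP90AA1 (−0.92) head the lower genes.

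Most probes carry no gene name, and after EAAT2 the smallest p-values belonged to unnamed ones. A_70_P028571 read −4.85 and −5.09 with vehicle and −3.97, −3.50 and −3.19 with triclosan, a difference of 1.41 (SE 0.23, adjusted p = 0.200). A_70_P028686 read 3.02 and 2.42 with vehicle and 0.79, 0.95 and 1.13 with triclosan, a difference of −1.77 (SE 0.33, adjusted p = 0.253). Both pairs of groups stood apart, and the same probes had −0.17 and 0.11 in the direct infusion. They were chosen after their values were seen, and what they measure is not known here.

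The direct infusion of the fetus shares no array with the maternal comparison and offers the same contrast at another dose and route, so the doses reaching the fetus cannot be matched. It had more arrays (median SE 0.183 against 0.237), and at the same 13152 probes limma called 953 higher (7.25%) and 1648 lower (12.5%). Across probes the log2 differences of both routes had a Pearson correlation of 0.199 and a Spearman correlation of 0.218, as a description over probes that share arrays. Of the 2601 probes called in the direct infusion, 2024 (77.8%) had the same sign in the maternal comparison, against 52.4% of the 10551 not called. Of the named genes, 54 (6.27%) were called higher and 89 (10.3%) lower there, and 114 of these 143 had the same sign. The peptide genes had a median of 0.90 in the direct infusion, where none was called either, and 0.97 in the maternal one. AGRP had 1.17 there against 3.42 here, NPY 0.64 against 1.70, POMC 0.65 against 1.66, and SST 1.14 by both routes.

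No probe passed the test of the difference between routes (0.00% called, smallest adjusted p = 0.167, with 1980 probes or 15.1% at an unadjusted p of 0.05). Genes of small p in that test were of several kinds. KDR, the main receptor for vascular endothelial growth factor, had −0.42 with overlap after maternal infusion and −1.57 after direct infusion. The difference was 1.15 (SE 0.28, adjusted p = 0.206). Its other probes had −0.71, 0.085 and 0.187 in the maternal comparison, so the KDR probes differed in sign there. IKKBETA, a kinase of NF-kappaB signalling, and ACSS2, an acetyl-CoA synthetase, had −0.03 and 0.06 here and −1.17 and −0.996 there. EAAT2, ADORA3 and SOD2 had values of −1.45, −0.94 and −0.85 here and of −0.30, 0.25 and 0.51 there. Their differences were −1.15, −1.19 and −1.36, with adjusted p of 0.206 to 0.207. On the fetal vehicle arrays these genes read −2.22 to −1.97, −2.17 to −1.66 and −0.56 to −0.25. Both maternal vehicle arrays lay above all of these, for ADORA3 at −0.81 and −1.16 and for SOD2 at 0.04 and 0.41. The maternal triclosan arrays of ADORA3 (−2.10 to −1.77) lay within its fetal vehicle range. Why the vehicle arrays of the routes differ was not tested. ENDOG, a mitochondrial nuclease, had −0.02 here and 0.59 there.

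**Figure D5:**
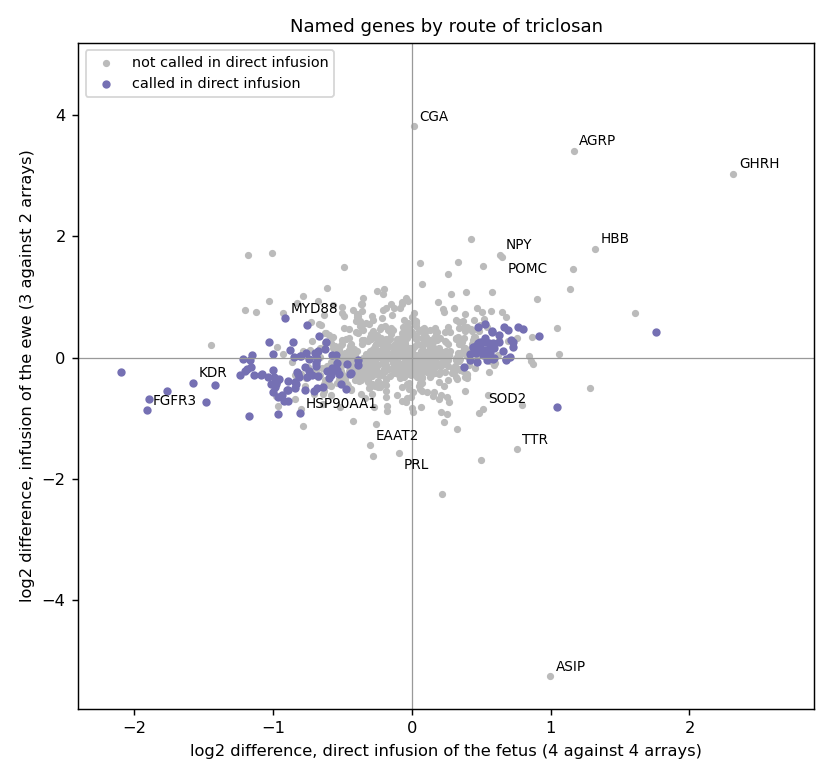
Log2 difference of each of the 861 named genes in the direct infusion of the fetus (x axis, 4 against 4 arrays) and in the infusion of the ewe (y axis, 3 against 2 arrays), with genes called in the direct infusion in purple. Of the 143 purple genes, 114 have the same sign on both axes, and MYD88 is higher in the infusion of the ewe (0.65) and lower in the direct infusion (−0.91).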

How the data were processed

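The authors' deposited scanner files hold spot intensity values of Agilent Feature Extraction 10.1.1.1, per the file headers, with a background-subtracted and detrended processed signal. The authors also deposited a table whose values look like log2 signals. No source states how it was scaled, and it served only as an alternative. limma is named without a version in the submitters' processing notes.

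Here log2 processed signals were scaled to the 75th percentile of each array, outlier spots were dropped (246 missing values, which the fit leaves out) and spots of a probe were averaged. limma 3.58.1 in R 4.3.3 fitted 4 group means over 13 arrays (9 residual and 2.66 prior degrees of freedom), with two-sided moderated tests and Benjamini-Hochberg adjustment over 13152 probes. SE is that of the fit. The script was tested on simulated data. Python 3.11.15, pandas 2.3.3, numpy 2.4.6, scipy 1.17.1 and matplotlib 3.10.9 made tables and plots. The number of arrays limits the precision.

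Of 15008 probes, 1556 carried a symbol (964 symbols) through the file or the supplied RefSeq table, and 13352 carried no name. Without a genome no coordinates are given. Genes named were the 12 higher and 12 lower of smallest p, up to 4 members of each of 34 lists, the measured peptide and pituitary genes, TTR, and 5 in each direction for the difference between routes. Some genes that meet this rule are not reported here. The comparison, lists and rule were chosen with earlier results of these data known. Alternatives covered scaling, background, filters, outliers, variance, weights, blocks and each array left out.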

Additional observations from a re-analysis of the deposited data

Results flagged for a closer look

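MYD88 had all arrays of the maternal infusion above their vehicle and all arrays of the direct infusion below theirs. This adaptor of innate receptors read −3.85 and −3.80 with maternal vehicle and −3.68, −2.56 and −3.27 with maternal triclosan (0.65). With fetal vehicle it read −3.71 to −3.35 and with fetal triclosan −4.69 to −3.95 (−0.91). The difference between routes was 1.56 (SE 0.36, limma adjusted p = 0.206), and the 2 MYD88 probes differed in sign in the maternal comparison. The difference did not pass the threshold.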

How the results depend on the processing

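Of 96 genes described, 78 kept their direction under every one of the 26 alternatives that measured them. FCGR2B, FSHB, GHRHR and JAG1 were not measured under the filter for all 5 maternal arrays. Calls in the maternal comparison numbered 10 probes (2 named genes) with all 14 arrays as deposited, which counts the blended vehicle array as a sample, and 970 probes (66 named genes) with array weights. Leaving out 1 array gave 0 to 2 probes and 0 to 1 named genes, the 2 being ASIP probes without maternal triclosan replicate 3. For the difference between routes the calls were 1 with quantile normalisation, 6 with all 14 arrays and 269 with array weights, and 0 to 67 with 1 array left out, 67 without fetal triclosan replicate 3. Probes over 2-fold without overlap numbered 75 with normexp, 115 with the authors' values (84 higher, 31 lower) and 583 without the filter on dim probes, and 401 to 749 with 1 array left out.

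Normexp moved the median difference of all probes from −0.0031 to −0.14. It moved the list medians of the reproductive axis to −0.087, of the steroid receptor list to −0.335 and of monoamine and purine genes to −0.08. It turned GNRH1 to −0.10, PMCH to −0.077, LEPR to −0.25, OXTR to −0.075, CRHR1 to −0.062, NR3C1 to −0.033, FSHB to −0.36, COL6A1 to −0.22, CYP3A24 to −0.22 and ACSS2 to −0.20. Median scaling turned IKKBETA to 0.00089 and ENDOG to 0.015. ENDOG was also 0.011 with quantile normalisation, 0.022 with array weights, 0.041 with the replicate block and 0.037 with the slide block, NPVF was 0.54 with array weights and AQP4 −0.089 with the authors' values. With 1 array left out, ACSS2 ran from −0.0062 to 0.13, CYP3A24 from −0.079 to 1.28, ENDOG from −0.12 to 0.11, ESR1 from −0.12 to 0.67, ESR2 from −0.61 to 0.40, FSHB from −0.38 to 3.37, GAL from −0.069 to 0.22, IKKBETA from −0.16 to 0.053, NPVF from −0.58 to 0.89 and THRB from −0.46 to 0.0046. The causes were not tested.

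Correlations of deviations were −0.078 and −0.075 for arrays of the same replicate number. With 2 vehicle arrays the deviations mirror each other, so these values cannot tell whether the numbers pair the samples. With the replicate block 0 probes were called and ACSS2 was −0.062, and with the slide as a block 0 were called and ACSS2 was −0.067. Dim probes, 2 vehicle arrays and slides shared by the groups limit the precision, and a gene that missed the threshold is not shown to be unaffected.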
